A study of Mus musculus with 54 samples.

Results

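The genes described here encode the subunits of potassium, voltage-gated calcium and voltage-gated sodium channels in mouse prostate tumours. They were taken from the expression table by their symbols alone: Kcn followed by a family letter and number, Cacna, Cacnb, Cacng or Cacna2d, and Scn with a number and the letter a or b. This gave 122 of the 16772 genes in the table, 87 of them Kcn, 23 Cacn and 12 Scn symbols. They fall into 29 pore-forming, 10 modifier and 10 auxiliary subunits of voltage-gated potassium channels, 8 pore-forming subunits of calcium- or sodium-activated potassium channels with 3 auxiliary subunits of the BK channel, 15 inward rectifiers, 10 two-pore-domain channels (K2P), 10 pore-forming and 13 auxiliary calcium channel subunits, 8 pore-forming and 4 auxiliary sodium channel subunits, and 2 transcripts that only share a symbol. The last 2 are Kcnq1ot1, a long noncoding RNA antisense to Kcnq1, and Kcnmb4os2.

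RNA from prostate tumour tissue of engineered mice was sequenced in 54 libraries from 48 animals. The labels of the intact endstage libraries carry piece codes (PT, AP, DP, LP or joined codes), whose mix was not matched between genotypes. Intact mice of the genotypes DKO, DKO_EE and DKO_EP were sampled at 12 weeks of age, with 4 animals each, and at endstage, with 3 DKO animals aged 35 to 46 weeks, 8 DKO_EE animals aged 28 to 42 weeks and 3 DKO_EP animals aged 39 to 52 weeks. A further set was castrated at 12 weeks and collected at endstage: 4 DKO animals aged 39 to 99 weeks, 5 DKO_EE animals aged 35 to 59 weeks and 5 DKO_EP animals aged 34 to 37 weeks. Castrated mice of a TKO genotype received vehicle (4 animals, 15 to 19 weeks) or CPI1688 (4 animals, 18 to 19 weeks), which the labels call an Ezh2 inhibitor. The submitters' design text describes DKO_EE and DKO_EP as DKO mice that also have Ezh2 deleted, so that the lesions DKO stands for are shared by these 3 genotypes. The labels used here do not spell out which genes DKO and TKO lack, what EE and EP stand for, or which promoter drives the recombinase. Ezh2 is the histone methyltransferase of the Polycomb system, which keeps developmental genes silent.

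Voltage-gated sodium and calcium channels open when a membrane depolarizes, and potassium channels return it to rest or hold it there. Calcium entering through voltage-gated channels triggers the release of secretory granules, so neurons, endocrine cells and neuroendocrine tumour cells use these genes, whereas muscle uses its own set for contraction. Pore-forming subunits conduct the ion, and auxiliary subunits (beta, gamma, alpha2delta, KChIP, KCNE) set their surface level, voltage dependence and kinetics.

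Values are log2 of a normalized count plus 1, and differences between group means are log2 fold changes on that scale, which understates changes of low genes. A gene passed the test, or was called, at a limma p-value adjusted over all genes under 0.05. Libraries held 3687048 to 9741808 reads over the table's genes. The whole-gene count of Ezh2 does not check a deletion whose exons the labels do not name; its log2 fold change in DKO_EE against DKO was -0.80 at 12 weeks (adjusted p = 0.975), -1.34 at intact endstage (adjusted p = 0.0194) and -0.90 at castrated endstage (adjusted p = 0.0831). In DKO_EP against DKO it was -0.18 (adjusted p = 0.991), -0.22 (adjusted p = 0.999) and -0.19 (adjusted p = 0.758) in the same order. Across 12 neuroendocrine marker genes, the summed normalized count was 96.7 to 3200 at 12 weeks and 17700 to 36200 at intact endstage, and the luminal secretory markers Pbsn and Msmb were at 0 in the intact and castrated endstage DKO, DKO_EE and DKO_EP groups. Single animals stood apart from their group: the castrated DKO animal of 99 weeks had a neuroendocrine sum of 337, against 25700 to 29900 in the other 3, and a basal epithelial sum of 70800, against 6740 to 7590. The first TKO vehicle animal had a neuroendocrine sum of 1130, against 15600 to 42900 in the others. Results that rest on these animals are given with and without them. Libraries also stood apart in Lars2, the mitochondrial leucyl-tRNA synthetase, which took 14.2% to 21.6% of the reads in all 5 intact endstage DKO_EP libraries and 0.009% to 35.3% in the 12 of intact endstage DKO_EE, 5 of them above 10%, but at most 0.036% in the 37 libraries of the other groups.

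The windows around the start sites of 4 members are shown. They are the members, beside Scn1a, whose difference between castrated DKO_EE and DKO tumours passed the test under every alternative run. Each window is 300 bases from RefSeq (GRCm38.p6), with 250 before and 50 after an annotated start of the gene. The Cacna1d window lies wholly within the gene span given below, so its start is not the outermost one of that gene. Sequences read 5′ to 3′ on the gene's strand, with every CG dinucleotide in capitals. CG reads the same on both strands. Cacna1d lies at chr14:30491107-30491406 on the minus strand, Kcnh5 at chr12:75177283-75177582 on the minus strand, Kcnj2 at chr11:111065914-111066213 on the plus strand, and Kcns3 at chr12:11150793-11151092 on the minus strand.
Cacna1d: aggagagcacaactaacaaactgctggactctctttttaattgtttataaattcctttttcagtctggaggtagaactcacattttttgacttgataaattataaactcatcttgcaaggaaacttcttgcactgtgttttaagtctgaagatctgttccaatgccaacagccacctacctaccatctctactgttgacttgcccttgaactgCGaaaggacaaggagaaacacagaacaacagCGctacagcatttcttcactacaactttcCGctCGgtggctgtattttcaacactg
Kcnh5: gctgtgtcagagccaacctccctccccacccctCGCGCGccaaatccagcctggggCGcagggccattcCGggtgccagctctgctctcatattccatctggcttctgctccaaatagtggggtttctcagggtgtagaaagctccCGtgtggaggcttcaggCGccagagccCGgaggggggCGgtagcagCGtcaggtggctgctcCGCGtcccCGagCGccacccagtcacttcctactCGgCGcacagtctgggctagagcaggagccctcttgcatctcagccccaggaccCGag
Kcnj2: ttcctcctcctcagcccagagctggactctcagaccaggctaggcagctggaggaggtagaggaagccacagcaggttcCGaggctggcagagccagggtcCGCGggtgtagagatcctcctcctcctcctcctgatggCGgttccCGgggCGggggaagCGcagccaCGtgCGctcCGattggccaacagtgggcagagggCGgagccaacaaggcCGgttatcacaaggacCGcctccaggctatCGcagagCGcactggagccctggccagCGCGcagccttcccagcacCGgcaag
Kcns3: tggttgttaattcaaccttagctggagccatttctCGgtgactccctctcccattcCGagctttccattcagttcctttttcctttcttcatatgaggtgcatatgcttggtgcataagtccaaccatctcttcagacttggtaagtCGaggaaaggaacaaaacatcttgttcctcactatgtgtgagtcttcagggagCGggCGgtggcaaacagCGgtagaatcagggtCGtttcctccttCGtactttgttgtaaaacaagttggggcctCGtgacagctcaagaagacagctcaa
The Cacna1d window held 4 CG dinucleotides, Kcns3 9, Kcnh5 17 and Kcnj2 18. A RefSeq window was matched for 89 members, and 33 had none in the table used. The median was 11 CG per window over these 89 members and 7 over 27025 genes, and 10 or more CG were in 55.1% of the members' windows and 43.9% of all windows. Of the members higher in intact endstage than 12-week DKO tumours, 25 had a window, with a median of 21 CG, while the 21 with a window among the lower members had a median of 8. The same medians were 18 and 9 in DKO_EE and 20.5 and 5 in DKO_EP. Matching medians over all genes called higher or lower are not given here, so this contrast is not shown to be particular to channel genes. These are descriptions of letters in a fixed window, not of methylation or of binding, which were not measured.

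Channel genes were low in this tissue as a class. The median member stood at percentile 27.4 of all genes by mean log2 value, 56 of 122 members lay in the lowest 25% of genes, and 27 lay above the median gene. A read was found in every animal for 51 members, and 10 members had a read in fewer animals than they lacked one. Per kilobase of exon, Kcnk1, a K2P channel for background potassium current, had the highest mean normalized count of the members in all 11 groups, from 334.4 in 12-week DKO to 1442.3 in castrated DKO_EE tumours. In 12-week DKO tumours it was followed by Scn7a, an atypical sodium channel involved in salt sensing (169.3 normalized counts per kilobase), the K2P channel Kcnk5 (143.1), the epithelial KCNE subunit Kcne3 (90.6) and Kcnma1, the pore of the BK channel (88.5). In intact endstage DKO tumours the next places went to Cacna2d1, an alpha2delta calcium channel subunit (489.1), the neuronal sodium channel Scn3a (281.4), the KChIP subunit Kcnip3 (212.7) and Kcnk16, a K2P channel of pancreatic islets (150.1). None of the genes that followed Kcnk1 at 12 weeks was among the leading 5 of intact endstage DKO tumours.

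Between 12 weeks and intact endstage, about the same number of members changed in each genotype. In DKO, 35 members were higher and 26 lower at endstage; in DKO_EE, 45 and 18; in DKO_EP, 42 and 23. Over all genes 18% were called higher and 18.7% lower in DKO, 23.6% and 27% in DKO_EE, and 21.3% and 22.9% in DKO_EP. Of the members, 50% were called in DKO, 51.6% in DKO_EE and 53.3% in DKO_EP, both directions together. In DKO_EE this was close to the all-gene shares of both directions added, and in DKO and DKO_EP it was above them. The lower members, 18 of 122 in DKO_EE and 23 of 122 in DKO_EP, were a smaller share than the lower ones of all genes. The median log2 fold change of the members was 0.13, 0.64 and 0.28 in that order, beside -0.04, -0.07 and -0.06 over all genes. In all 3 genotypes 31 members were called higher and 9 lower. The 11, 11 and 12 of 12 neuroendocrine markers called higher in DKO, DKO_EE and DKO_EP moved with these members, none being lower; their part in the result was not tested. In bulk tissue, fewer cells of a type and less RNA per cell cannot be told apart. All 5 intact endstage DKO_EP libraries had 14.2% to 21.6% of their reads in Lars2, and the 12-week DKO_EP libraries at most 0.002%. Stage and that share cannot be told apart in the DKO_EP changes given here and below. In DKO_EE, 5 of the 12 intact endstage libraries were above 10%.

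Voltage-gated potassium pores made up the largest class and were mostly higher at endstage, with 13 of 29 higher and 5 lower in DKO, 14 and 4 in DKO_EE, and 14 and 4 in DKO_EP. Kcnh2 (ERG1), which carries a repolarizing current, was 6.24, 5.97, 6.25 and 5.83 in the 4 DKO animals of 12 weeks and 9.07, 8.95 and 9.02 in the 3 of endstage. The ranges did not overlap in any genotype, and the log2 fold change was 2.94 (SE 0.81, adjusted p = 0.00397) in DKO, 3.5 (adjusted p = 3.19e-05) in DKO_EE and 3.69 (adjusted p = 0.000347) in DKO_EP. Kcnh3, its brain relative, was 1.59, 3.49, 3.4 and 2.5 in 12-week DKO animals and 8.76, 8.98 and 8.27 at endstage, a log2 fold change of 5.93 (SE 1.09, adjusted p = 5.38e-05). Its log2 fold change was 4.73 in DKO_EE and 6.0 in DKO_EP, and the ranges of the 2 ages did not overlap in any genotype. Kcnc1, the fast-firing channel Kv3.1, was 7.23, 4.33, 5.67 and 4.91 in 12-week DKO and 10.52, 9.66 and 9.8 at endstage (log2 fold change 4.46, SE 1.18, adjusted p = 0.00291). The DKO_EE ranges of Kcnc1 overlapped, since one 12-week animal was at 8.54 and the lowest endstage animal at 7.53, and its log2 fold change there was 3.63 (SE 0.95, adjusted p = 0.00171). Kcnh6, a further ERG channel, rose by 4.45, 3.57 and 5.22 in DKO, DKO_EE and DKO_EP, and Kcnh5 by 4.56 (adjusted p = 0.00299) in DKO and 6.02 (adjusted p = 4.63e-06) in DKO_EE, its value in DKO_EP being 2.79 (adjusted p = 0.0589). Among the pores called lower in all 3 genotypes were Kcna1, Kcna6 and Kcnd3, pores of the Kv1 and Kv4 families. Kcna1 was 7.29, 8.8, 7.45 and 5.46 in 12-week DKO and 3.31, 1.5 and 1.48 at endstage (log2 fold change -5.16, SE 1.25, adjusted p = 0.00127). Kcna1 is known from myelinated nerve, and 8, 6 and 4 of 10 Schwann cell and nerve markers were also lower in DKO, DKO_EE and DKO_EP. Their summed normalized count was 2170 to 4620 in the animals of 12 weeks and 1220 to 2870 at intact endstage, and Sox10 was at 0 in all intact endstage DKO and DKO_EP animals; their part in the result was not tested. The immune cell channel Kcna3 and the epithelial channel Kcnq1 were called in none of the comparisons made.

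Modifier subunits, which form no current alone but join Kv2 pores, went the other way in DKO, where 0 of 10 were higher and 4 lower. Kcns3, one of them, was 5.33, 6.32, 5.7 and 5.02 in 12-week DKO animals and 3.93, 3.79 and 1.88 at endstage (log2 fold change -2.39, SE 0.93, adjusted p = 0.0394). In DKO_EE the 12-week animals lay at 5.73 to 6.58 and the endstage animals at 0.0 to 5.41 with a median of 2.26, a log2 fold change of -4.02 (SE 0.74, adjusted p = 3.15e-05). Every endstage animal was below every 12-week animal in both genotypes. Of the other lower modifiers in DKO, Kcng4 had 130 reads at 12 weeks and 3 at endstage, and Kcng1 had 55 and 0. The first 12-week animal, the highest in skeletal muscle markers, held 73 and 21 of these reads. Without it the Kcng4 ratio was 25.5 (counting interval 8.29 to 127), and Kcng1 was at least 15.2-fold lower by a floor of 3 reads. The part of muscle in these calls was not tested. The auxiliary class was mixed, with 4 of 10 higher and 1 lower in DKO. Kcnip3 rose from 6.03, 6.5, 6.37 and 5.83 to 8.81, 9.58 and 10.03 in DKO, a log2 fold change of 3.3 (SE 0.80, adjusted p = 0.00121). Kcne3, which partners Kcnq1 in epithelia, fell from 6.22, 7.5, 6.56 and 8.23 to 5.09, 5.01 and 4.02 (log2 fold change -2.42, SE 0.69, adjusted p = 0.0056). Kcnab2, a cytoplasmic beta subunit, rose by 1.96 (adjusted p = 0.00106), 1.1 (adjusted p = 0.0132) and 2.26 (adjusted p = 0.00017) in DKO, DKO_EE and DKO_EP. Kcnip1, another KChIP subunit, was called in no comparison. Kcnf1, a modifier, was called higher in DKO_EE (log2 fold change 3.3, SE 0.68, adjusted p = 0.000123) and had values of -1.19 (adjusted p = 0.281) in DKO and 0.30 (adjusted p = 0.801) in DKO_EP.

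Among the calcium-activated potassium channels, Kcnma1 and Kcnn4 fell in all 3 genotypes and Kcnn3 rose. Kcnma1, whose BK channel is abundant in smooth muscle, was 10.64, 10.5, 10.5 and 10.58 in 12-week DKO animals and 5.62, 7.32 and 2.67 at endstage. The endstage values lay at 5.59 to 8.05 with a median of 7.04 in DKO_EE and at 4.49, 4.28 and 3.82 in DKO_EP. All endstage animals were below all 12-week animals, with log2 fold changes of -5.35 (SE 0.94, adjusted p = 2.87e-05) in DKO, -3.55 (SE 0.75, adjusted p = 0.000179) in DKO_EE and -6.29 (SE 0.94, adjusted p = 2.5e-06) in DKO_EP. Smooth muscle markers moved with it, 8, 9 and 10 of 10 being lower in the same order; their part in the result was not tested. Kcnn4, the intermediate-conductance channel of epithelia and immune cells, was 8.74, 7.59, 7.68 and 7.77 in 12-week DKO and 4.54, 3.79 and 3.55 at endstage (log2 fold change -3.98, SE 1.07, adjusted p = 0.00333). Kcnn3, a small-conductance channel of neurons, moved the other way, with log2 fold changes of 2.15 (adjusted p = 0.0353), 2.29 (adjusted p = 0.00364) and 2.57 (adjusted p = 0.00989). Kcnmb2, an inactivating BK subunit, gave 1 read in the 12-week DKO group and 118 reads at endstage, a ratio per normalized total of 123 with a 95% exact binomial interval of 21.7 to 4910 that covers counting error only. The first endstage animal held 88 of these reads, and without it the ratio was 47.2 (7.85 to 1930). Kcnmb4, the neuronal BK subunit, had 3 reads in 12-week DKO and 49 at endstage, a ratio of 17 (counting interval 5.5 to 85.5), or 10.5 (3.11 to 55.1) without the first endstage animal. Kcnmb1, the smooth muscle BK subunit, was called lower in DKO_EP (log2 fold change -2.26, SE 0.92, adjusted p = 0.0433), with values of -1.53 (adjusted p = 0.195) in DKO and -1.52 (adjusted p = 0.0828) in DKO_EE. Kcnn1, a small-conductance channel, was called in no comparison.

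Inward rectifiers and K2P channels had members on both sides. Kcnj15, an epithelial inward rectifier, was 7.32, 8.1, 7.38 and 8.29 in 12-week DKO and 4.54, 6.37 and 3.76 at endstage (log2 fold change -2.88, SE 1.05, adjusted p = 0.0283). Kcnj3, the GIRK1 subunit opened by G proteins, was 2.33, 4.99, 4.83 and 0.0 at 12 weeks and 7.65, 5.09 and 8.55 at endstage (log2 fold change 4.06, SE 1.22, adjusted p = 0.00828). Kcnj6, its GIRK2 partner, had no read in the 12-week DKO_EP group against 83 reads at endstage, where it was at least 38.7-fold higher by a floor of 3 reads over the group. The third endstage animal held 71 of the 83 reads, and without it the bound was at least 7.05-fold higher. Kcnj8, a KATP pore of vessels, was called in none of the comparisons. Among K2P channels, Kcnk5 fell and Kcnk16 rose. Kcnk5, an acid-sensitive epithelial channel, was 8.82, 8.74, 9.09 and 9.04 in 12-week DKO and 4.23, 4.96 and 3.55 at endstage, with a log2 fold change of -4.67 (SE 0.97, adjusted p = 0.000251). Kcnk16 was 2.01, 2.78, 2.39 and 0.0 at 12 weeks and 6.65, 9.3 and 8.42 at endstage, a log2 fold change of 6.33 (SE 1.52, adjusted p = 0.00113). Both moved the same way with no overlap in DKO_EE (-4.5 and 5.76) and DKO_EP (-5.5 and 7.41). Beside the lower epithelial channels Kcnk5, Kcnj15, Kcne3 and Kcnn4, 5, 9 and 9 of 10 basal and 6, 5 and 5 of 10 luminal epithelial markers were lower in DKO, DKO_EE and DKO_EP; their part in the result was not tested. Kcnk1 was called in DKO_EE only (log2 fold change 1.5, SE 0.39, adjusted p = 0.00168); its values in DKO (0.56, adjusted p = 0.391) and DKO_EP (0.21, adjusted p = 0.759) did not pass. The mechanosensitive Kcnk2 was lower in DKO (-2.05, adjusted p = 0.034) and DKO_EP (-2.48, adjusted p = 0.00863) and had a value of 0.07 (adjusted p = 0.94) in DKO_EE. For Kcnk1 the difference in change between DKO_EE and DKO, or DKO_EE and DKO_EP, did not pass either.

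**Figure D1:**
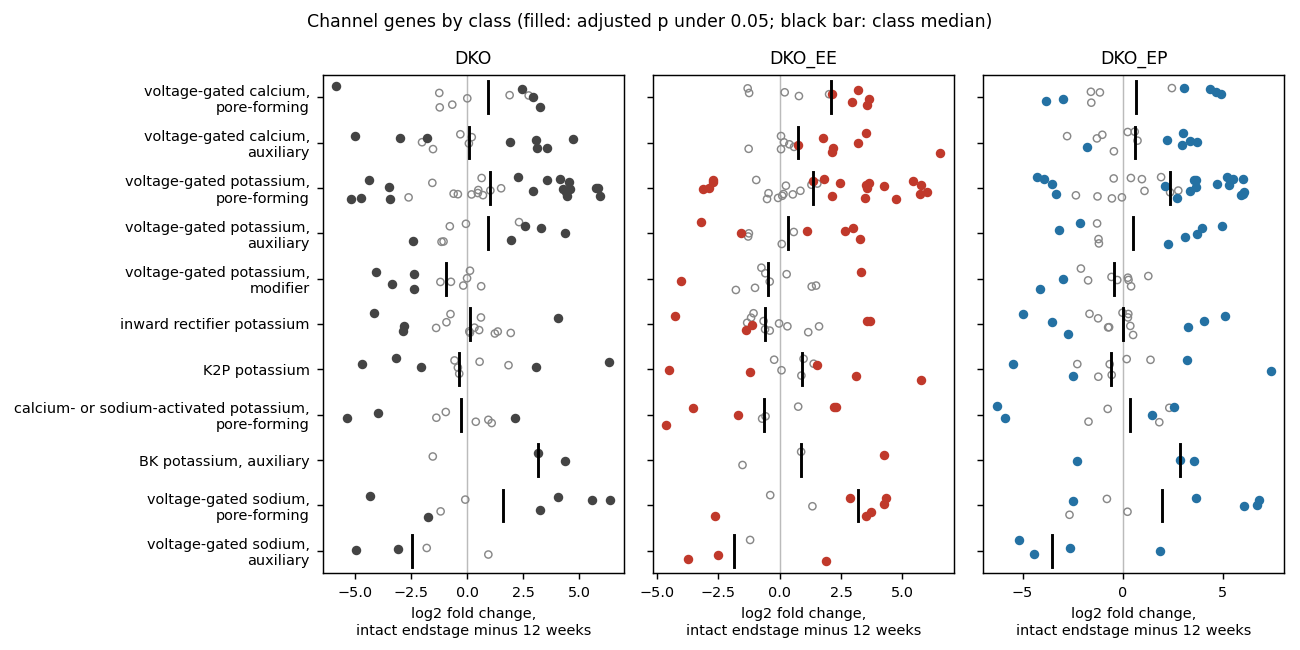
Log2 fold change of each member from 12 weeks to intact endstage (horizontal axis, difference of mean log2(normalized count + 1)) by channel class (vertical axis), 1 panel each for DKO, DKO_EE and DKO_EP, with called members filled and class medians as black bars. The medians of voltage-gated potassium and sodium pores lie above 0. Those of sodium channel auxiliary subunits lie below it, at -2.44, -1.87 and -3.51, although Scn3b of this class lies above 0 in each panel.

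Of the 10 calcium channel pores, 3 were higher and 1 lower at endstage in DKO, 5 and 0 in DKO_EE, and 4 and 2 in DKO_EP. Cacna1a, the P/Q-type pore, was 6.61, 7.33, 6.82 and 6.41 in 12-week DKO and 9.83, 9.98 and 9.41 at endstage, with log2 fold changes of 2.95 (SE 0.89, adjusted p = 0.00863) in DKO, 3.65 in DKO_EE and 4.35 in DKO_EP. Cacna1b, the N-type pore, rose by 3.24 (adjusted p = 0.0231), 3.56 (adjusted p = 0.00143) and 4.93 (adjusted p = 0.000618), and Cacna1c, the L-type pore of heart and smooth muscle, by 2.44, 2.96 and 3.06. None of the ranges of Cacna1a or Cacna1b overlapped between the ages. The T-type pore Cacna1h was called higher in DKO_EE (3.17, SE 0.88, adjusted p = 0.00295), with 1.9 (adjusted p = 0.177) in DKO and 2.47 (adjusted p = 0.0645) in DKO_EP, and the T-type pore Cacna1g was called in no comparison. Of the 13 auxiliary subunits, 5 were higher and 3 lower in DKO, 7 and 0 in DKO_EE, and 5 and 1 in DKO_EP. Cacna2d1 was 9.61, 9.28, 8.75 and 8.85 in 12-week DKO and 13.41, 12.36 and 11 at endstage (log2 fold change 3.14, SE 0.68, adjusted p = 0.000379). Cacna2d3 showed log2 fold changes of 4.73 (adjusted p = 0.00115), 6.55 (adjusted p = 4.23e-07) and 3.36 (adjusted p = 0.0154), the DKO_EP ranges overlapping. Cacna2d2, a further alpha2delta subunit, was called in no comparison.

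Of the sodium channel pores, 4 of 8 were higher at endstage in DKO, 5 in DKO_EE and 4 in DKO_EP. Pores called lower in any genotype were Scn4a, Scn7a and Scn11a, with Scn4a lower in DKO and Scn7a in DKO_EE and DKO_EP. Auxiliary beta subunits had 0, 1 and 1 of 4 higher and 2, 2 and 3 lower in the same order of genotypes. Scn3a was 5.26, 7.43, 6.65 and 2.17 in 12-week DKO animals and 11.91, 11.53 and 11.85 at endstage. In DKO_EE it was 5.07, 5.81, 7.48 and 8.3 at 12 weeks and 10.55 to 11.38 at endstage, and in DKO_EP 3.32, 5.88, 5.33 and 4.85 and then 11.73, 12.15 and 11.17. The endstage animals were within 1 log2 unit of each other in each genotype, while the 12-week animals were spread over several, and the log2 fold changes were 6.39 (SE 1.14, adjusted p = 3.68e-05), 4.31 (SE 0.91, adjusted p = 0.000182) and 6.84 (SE 1.14, adjusted p = 1.15e-05). Scn8a, the channel of axon initial segments, rose by 3.26 (adjusted p = 6.8e-05), 3.51 (adjusted p = 4.26e-07) and 3.68 (adjusted p = 1.03e-05), and Scn9a, known from pain neurons, by 4.05 (adjusted p = 0.0143), 3.7 (adjusted p = 0.00373) and 6.71 (adjusted p = 9.75e-05). Scn2b, a beta subunit, was 5.09, 6.27, 5.67 and 4.6 in 12-week DKO and 2.19, 2.89 and 1.88 at endstage (log2 fold change -3.09, SE 0.82, adjusted p = 0.00283). Scn3b, a beta subunit of neurons, had log2 fold changes of 0.95 (adjusted p = 0.341), 1.88 (adjusted p = 0.00965) and 1.86 (adjusted p = 0.0436). The sodium channel Scn2a was not analysed here.

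**Figure D2:**
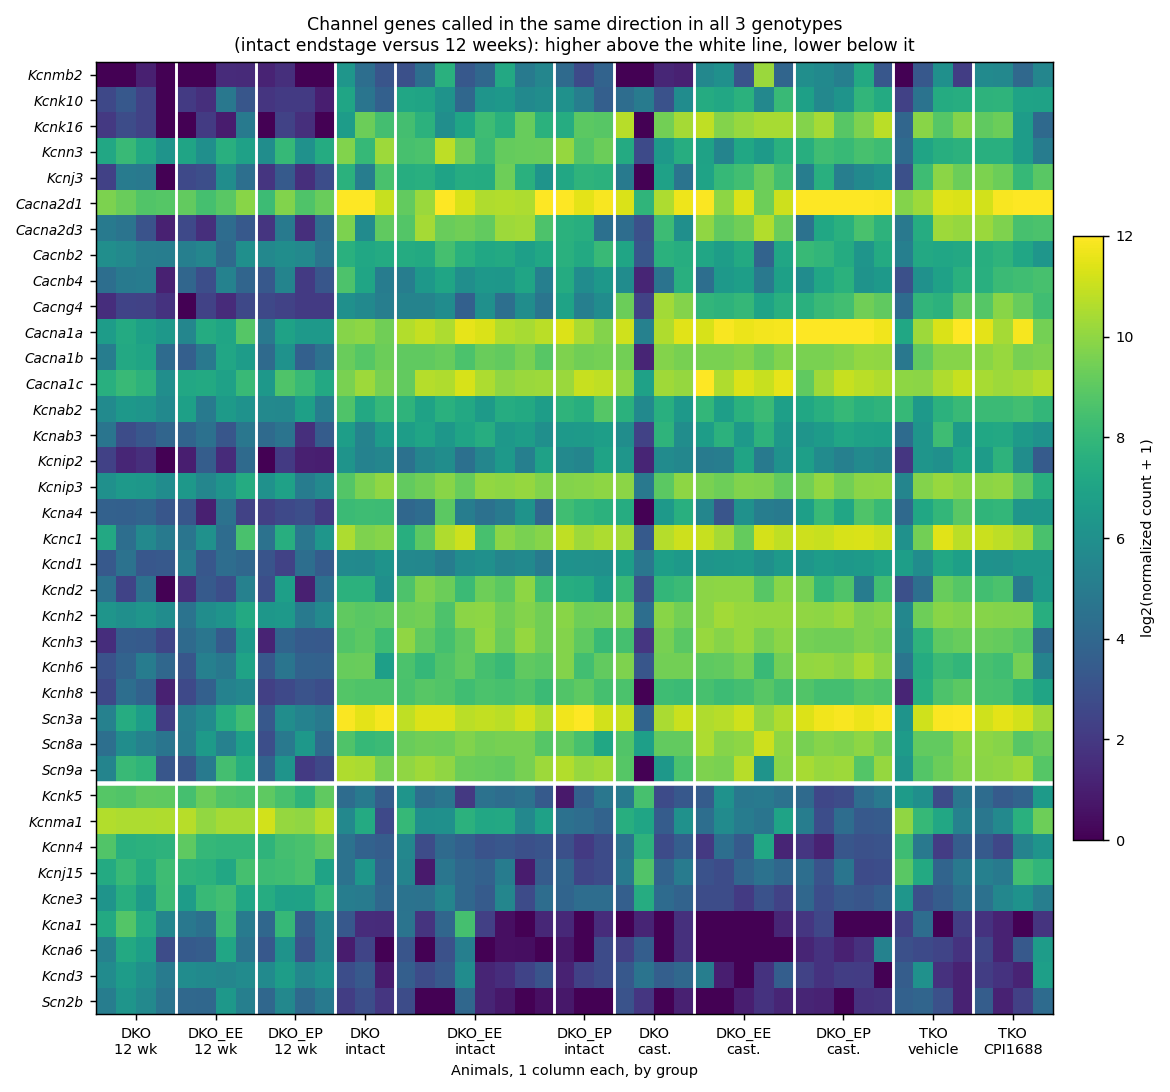
Log2(normalized count + 1) of 28 of the 31 members higher and of the 9 members lower at intact endstage in all 3 genotypes (rows), in each of the 48 animals by group (columns), shown by colour. The castrated DKO animal of 99 weeks and the first TKO vehicle animal keep low values of the first set.

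Another set of lower members encodes the channels of skeletal muscle. Cacna1s, the calcium channel of skeletal muscle, was 9.12, 4.43, 4.89 and 8.14 in 12-week DKO animals, 2.38, 0.0, 2.2 and 2.12 in DKO_EE and 1.83, 9.28, 1.04 and 9.16 in DKO_EP. Scn4a, the skeletal muscle sodium channel, followed the same animals at 8.53, 3.29, 4.33 and 7.39 in DKO, 2.87, 0.0, 0.93 and 0.88 in DKO_EE, and 0.0, 8.27, 0.0 and 8.65 in DKO_EP. The summed normalized count of 12 skeletal muscle markers was 303000, 12400, 20100 and 167000 in these DKO animals, 1830, 235, 369 and 795 in DKO_EE, and 295, 289000, 1140 and 309000 in DKO_EP. The first and the last DKO animal and the second and the last DKO_EP animal, which had at least 1% of their reads in the muscle gene Ttn, were thus the highest in the channels and the markers. At endstage Cacna1s had 3 reads in DKO against 836 at 12 weeks, a ratio of 267 with a counting interval of 91 to 1300, and of 127 (42.9 to 617) without the first 12-week animal, which held 553 of the reads. With the 12-week animals under 1% Ttn alone, 24 members were higher and 23 lower in DKO, with 45 of the 61 calls shared. The DKO animals kept there still had marker sums of 12400 and 20100, against 487 to 2000 in intact endstage DKO. This limit therefore did not remove muscle from the DKO comparison, and the shared calls are not shown to be free of it. In DKO_EP, where the animals kept had sums of 295 and 1140, 38 members were higher and 8 lower. The log2 fold change of Cacna1s in DKO_EP turned from -3.85 (adjusted p = 0.0206) to 0.04 (adjusted p = 0.997). Scn4b, a beta subunit of muscle and heart, had 394 reads in 12-week DKO and 3 at endstage, and in DKO_EP, with 491 and 0 reads, it was at least 117-fold lower by the same floor. The first 12-week DKO animal held 262 of the 394 reads, and without it the ratio went from 126 to 59 (counting interval 19.8 to 290). The second 12-week DKO_EP animal held 247 of the 491, and without it the bound was at least 78.5-fold. Kcnj11, the KATP pore of muscle and beta cells, had 127 reads in 12-week DKO_EP tumours and 0 at endstage and was at least 30.2-fold lower, or at least 19.1-fold lower without the fourth 12-week animal.

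**Figure D3:**
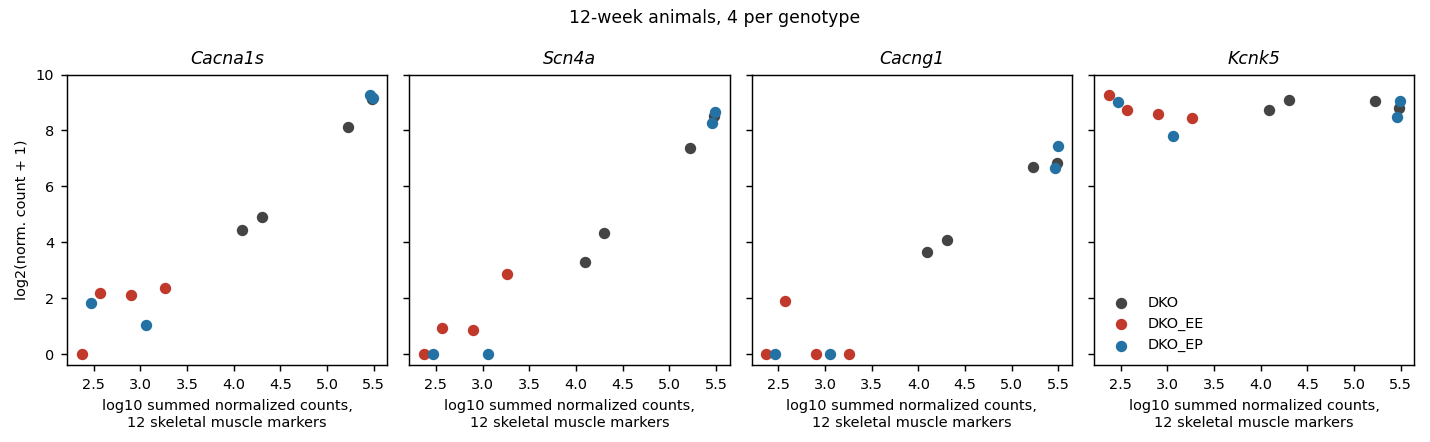
Log2(normalized count + 1) of Cacna1s, Scn4a, Cacng1 and Kcnk5 (vertical axes) against the log10 summed normalized count of 12 skeletal muscle markers (horizontal axis) in the 12 animals of 12 weeks. The 3 muscle subunits are high in the animals with high sums, and Kcnk5 lies between 7.8 and 9.26 at every sum.

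Between genotypes at 12 weeks no member passed the test. For DKO_EE against DKO 0% of all genes were called, 13 members had an unadjusted p under 0.05 and limma-voom on the recovered reads called 0; for DKO_EP against DKO the values were 0%, 4 and 0. The smallest adjusted p of a member was 0.975 and 0.991. DKO_EP against DKO also gave no member at intact endstage, where 0% of all genes were called (10 members with an unadjusted p under 0.05, 0 by limma-voom). All 5 DKO_EP libraries there had 14.2% to 21.6% of their reads in Lars2, and the DKO libraries at most 0.026%. Genotype and that share cannot be told apart in this comparison. At castrated endstage DKO_EP against DKO again called none, with 0.0302% of all genes called, 20 members with an unadjusted p under 0.05 and 0 by limma-voom. The nearest was Kcns3, with a log2 fold change of -3.14 (adjusted p = 0.0963).

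At intact endstage 6 members were higher and 2 lower in DKO_EE than in DKO, 6.56% of members in both directions together. Of all genes, 1.12% were higher and 0.541% lower. The higher members included Cacna1d, Kcnf1, Kcnd2 and Cacnb3, and the lower ones were Kcnb2 and Kcnj2; in none of the 8 did the animals of the groups overlap. Cacna1d, the L-type calcium channel Cav1.3 of endocrine cells and pacemakers (chr14:30039939-30491455, GRCm38), was 5.56, 5.81 and 5.77 in DKO and 7.52 to 10.36 with a median of 9.53 in DKO_EE. Its log2 fold change was 3.52 (SE 0.49, adjusted p = 0.00434). Kcnf1, a modifier of Kv2 channels, was 2.67, 1.5 and 3.03 in DKO and 4.94 to 6.79 with a median of 5.81 in DKO_EE, a log2 fold change of 3.37 (SE 0.51, adjusted p = 0.00611). Kcnb2, a Kv2 pore, was 8.85, 9.31 and 8.46 in DKO and 3.54 to 7.95 with a median of 5.75 in DKO_EE, a log2 fold change of -3.33 (SE 0.68, adjusted p = 0.0265). Kcnj2, the strong inward rectifier Kir2.1 that holds the resting potential, was 9.34, 7.93 and 7.63 in DKO and 4.8 to 7.33 with a median of 5.78 in DKO_EE (log2 fold change -2.4, SE 0.45, adjusted p = 0.0182). The A-type pore Kcnd2 (1.91, SE 0.42, adjusted p = 0.0392) and the calcium channel beta subunit Cacnb3 (1.08, SE 0.22, adjusted p = 0.0285) had smaller log2 fold changes. With only 3 DKO animals, leaving out any 1 of them left 4 calls, and leaving out the third DKO_EE animal gave 14. With age as a covariate 4 members were called. With the DKO_EE libraries under 10% Lars2 alone 5 were called: the log2 fold change was 3.75 (adjusted p = 0.0208) for Cacna1d and 3.55 (adjusted p = 0.0121) for Kcnf1, while Kcnb2 (-3.45, adjusted p = 0.0616), Kcnj2 (-2.57, adjusted p = 0.0694), Kcnd2 and Cacnb3 were not called. Among the marker lists, 1 of 12 neuroendocrine and 2 of 9 macrophage genes were lower and 1 of 10 Schwann cell genes was higher in the same comparison, and no muscle or epithelial marker was called.

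**Figure D4:**
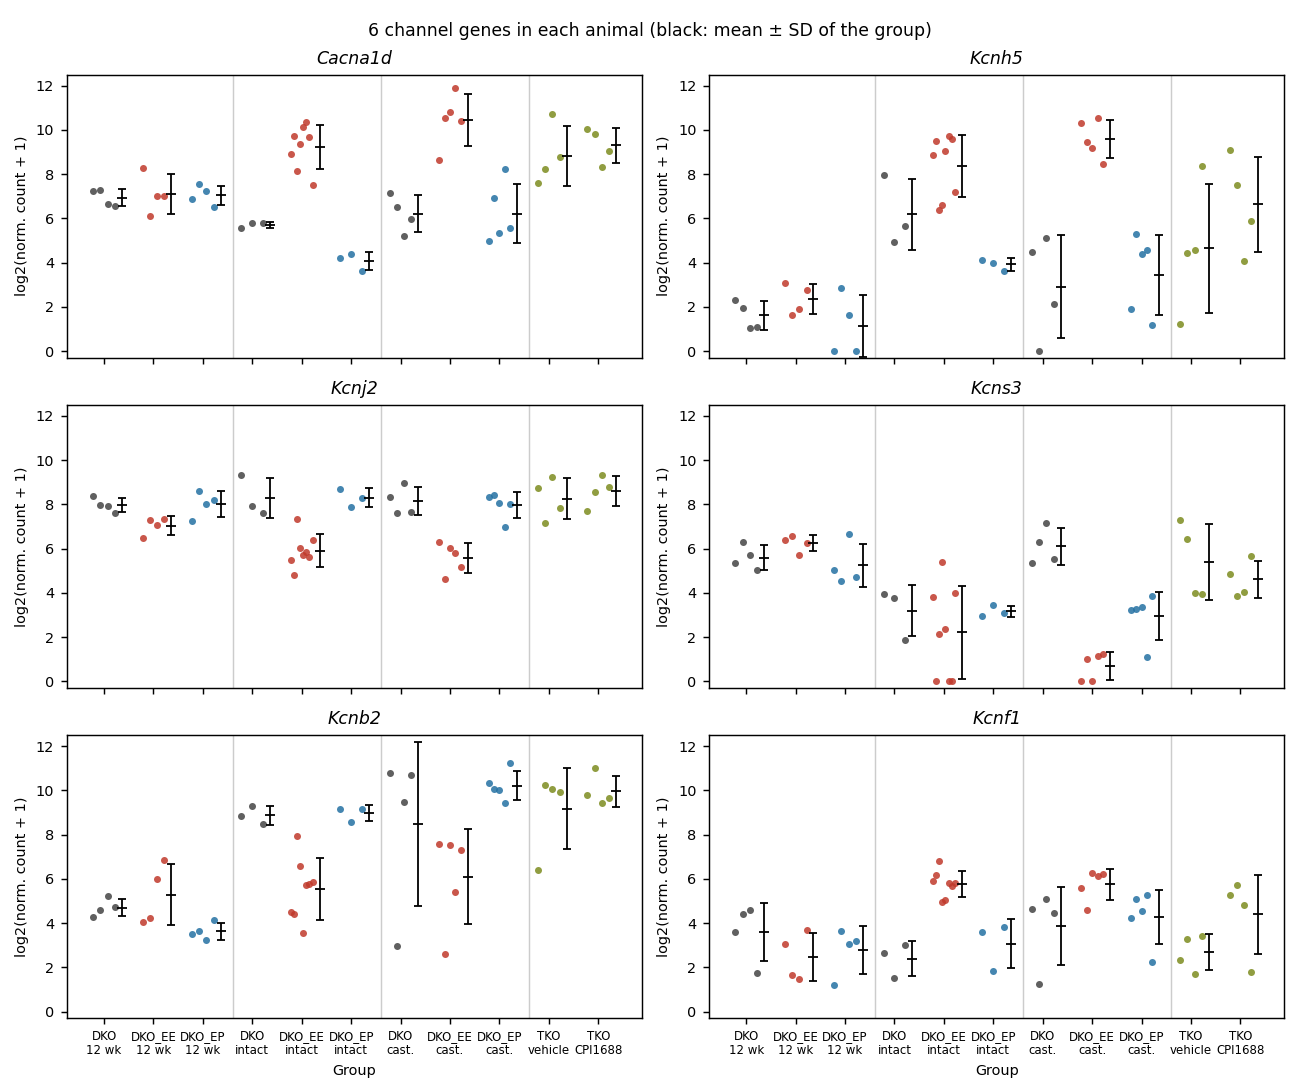
Log2(normalized count + 1) of Cacna1d, Kcnh5, Kcnj2, Kcns3, Kcnb2 and Kcnf1 in each animal (points) of the 11 groups, with the mean and SD (bars). Cacna1d is highest in castrated DKO_EE tumours (10.45 ± 1.18) and lowest in intact endstage DKO_EP tumours (4.07 ± 0.41), and Kcns3 is at or near 0 in castrated DKO_EE tumours.

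At castrated endstage 11 members were higher and 4 lower in DKO_EE than in DKO, 12.3% of members in both directions together. Of all genes, 3.42% were higher and 4.3% lower. The 4 lower of 122 members were thus a smaller share than the lower ones of all genes, and the 11 higher members a larger one. The median log2 fold change of the members was 0.40, beside 0.00 over all genes. Of the marker lists, 0 of 12 neuroendocrine genes were called, and 2 of 9 T cell genes and 1 of 10 basal, 1 of 10 Schwann cell and 1 of 10 endothelial genes were lower, while 1 of 10 luminal genes was higher and 1 lower; their part in the result was not tested. Kcnh5 (EAG2, chr12:74897220-75177332), a slow neuronal potassium pore, was 4.48, 0.0, 5.09 and 2.11 in DKO and 10.32, 9.46, 9.19, 10.55 and 8.47 in DKO_EE. All DKO_EE animals stood above all DKO animals, with a log2 fold change of 6.68 (SE 1.06, adjusted p = 0.00304). Its relative Kcnh1 had a log2 fold change of 3.33 (SE 0.73, adjusted p = 0.0176). Cacna1d was 7.15, 6.52, 5.21 and 5.95 in DKO and 8.62, 10.53, 10.81, 11.88 and 10.41 in DKO_EE, again without overlap (log2 fold change 4.24, SE 0.71, adjusted p = 0.00408). Scn1a, a sodium channel of inhibitory neurons, was 2.25, 1.25, 0.0 and 1.08 in DKO and 4.71, 5.61, 6.17, 4.58 and 4.63 in DKO_EE (log2 fold change 4.0, SE 0.57, adjusted p = 0.00168). Kcnk1 was 10.23, 9.72, 10.44 and 10.38 in DKO and 10.86, 11.88, 11.84, 11.19 and 12.14 in DKO_EE, a log2 fold change of 1.39 (SE 0.28, adjusted p = 0.0125). Other higher members were Cacna2d3 (4.29), Kcnj3 (4.1), Kcnk10 (2.65), Scn8a (1.83) and Kcnmb2, which had 2 reads in DKO and 1104 in DKO_EE, a ratio of 383 with a counting interval of 106 to 3170. The fourth DKO_EE animal held 976 of the 1104 reads of Kcnmb2, and without it the ratio was 54.5 (counting interval 14.8 to 455).

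The lower members in castrated DKO_EE tumours were Kcns3, Kcnj2, Scn7a and Kcnk6. Kcns3 (chr12:11090202-11151056) was 5.36, 6.31, 7.18 and 5.54 in DKO and 0.0, 1.0, 0.0, 1.14 and 1.26 in DKO_EE, where the whole group held 3 reads against 230 in DKO. The ratio was 110 with a 95% counting interval of 37.3 to 539, and the fitted log2 fold change was -5.42 (SE 0.58, adjusted p = 0.000213). Kcnj2 (chr11:111066164-111076821) was 8.33, 7.63, 8.96 and 7.66 in DKO and 6.31, 4.64, 6.04, 5.79 and 5.16 in DKO_EE, without overlap, a log2 fold change of -2.56 (SE 0.40, adjusted p = 0.00283). Scn7a (-1.93, SE 0.55, adjusted p = 0.047) and the K2P channel Kcnk6 (-1.72, SE 0.44, adjusted p = 0.0326) were closer to the threshold. Cacna1d and Kcnj2 were the 2 members called in both the intact and the castrated comparison. Whether the DKO_EE difference itself differed between castrated and intact tumours was tested for all members and passed for none, with 0.0119% of all genes called, 18 members with an unadjusted p under 0.05 and 0 by limma-voom. The smallest adjusted p was that of Kcns3 (-4.43, adjusted p = 0.232).

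The castrated DKO animal of 99 weeks, whose neuroendocrine sum was the lowest of its group, was at 0.0 in Kcnh5 and in Kcnj3, where the DKO animals of 39, 84 and 50 weeks were at 4.9, 6.89 and 4.6 and the DKO_EE animals at 6.97, 8.03, 8.37, 9.24 and 8.38. Without that animal 13 members were higher and 8 lower, and 14 of the 15 calls were kept, Kcnk6 being lost (adjusted p = 0.0648). The log2 fold change was then 5.7 for Kcnh5, 2.74 for Kcnj3, 4.35 for Cacna1d and -5.35 for Kcns3. Newly called were Kcnq3 (-4.94, adjusted p = 0.000521), Kcnb2 (-4.22, adjusted p = 0.0146), Kcnj4 (-3.38, adjusted p = 0.00565), Kcna4 (-2.2) and Cacng4 (-2.16) as lower and Kcnh3 (0.95) and Kcnh2 (0.47) as higher. Kcnq3, a slow neuronal potassium pore, was 8.82, 2.7, 9.29 and 8.33 in DKO and 4.65, 2.32, 3.64, 4.84 and 3.9 in DKO_EE, so the 99-week animal alone overlapped with DKO_EE. The castrated DKO animals were 39 to 99 weeks old and the DKO_EE animals 35 to 59 weeks, and with age as a covariate 6 members were called in DKO_EE against DKO.

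**Figure D5:**
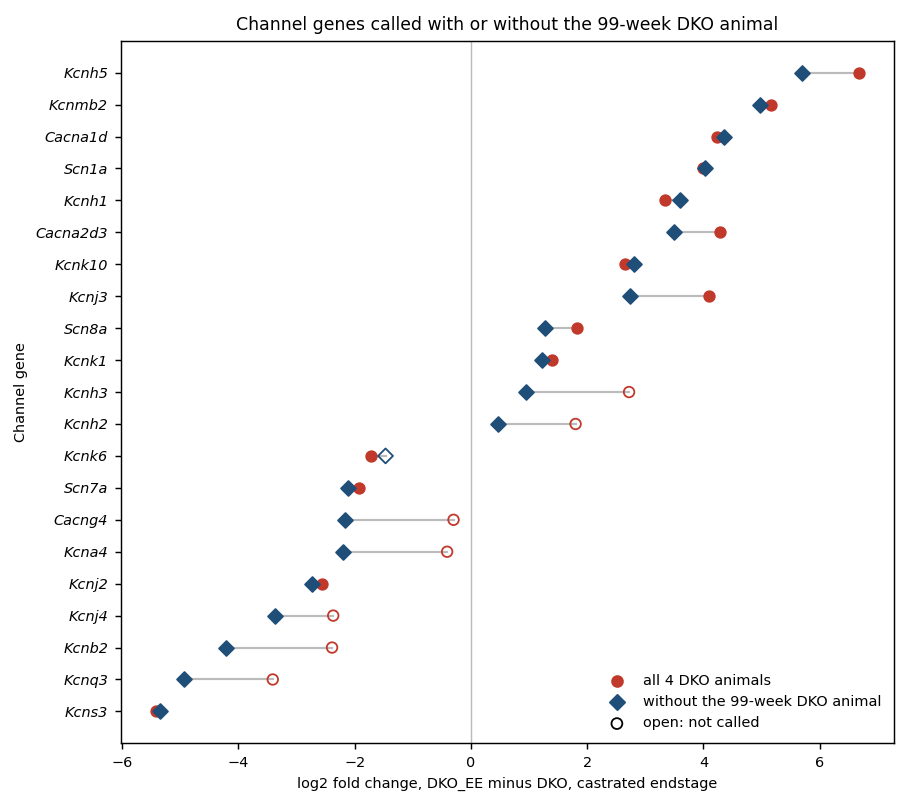
Log2 fold change of members in castrated DKO_EE against DKO tumours with all 4 DKO animals (circles) and without the 99-week DKO animal (diamonds); the horizontal axis is the difference of mean log2(normalized count + 1), the vertical axis lists members called in either fit, and open symbols were not called. The pairs of points of Cacna1d, Kcnj2 and Kcns3 lie close together, while Kcnq3 reaches -4.94 only without the animal.

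DKO_EE and DKO_EP, the 2 Ezh2 genotypes, also differed from each other; these comparisons share the DKO_EE animals with those against DKO. At castrated endstage 4 members were higher and 1 lower in DKO_EE, 4.1% of members in both directions together. Of all genes, 0.707% were higher and 0.99% lower, so the 1 lower member was close to the all-gene share. Kcnh5 was 1.91, 5.28, 4.37, 4.58 and 1.16 in DKO_EP, all below the DKO_EE animals (log2 fold change 6.13, SE 0.99, adjusted p = 0.00648). Cacna1d was 4.98, 6.93, 5.34, 8.21 and 5.58 in DKO_EP, below the lowest DKO_EE animal at 8.62 (4.24, SE 0.67, adjusted p = 0.00562). Kcnj2 was 8.34, 8.44, 8.08, 6.99 and 8.0 in DKO_EP, above all DKO_EE animals (-2.38, SE 0.37, adjusted p = 0.00562). The R-type calcium pore Cacna1e (4.72, SE 0.97, adjusted p = 0.0251) and Kcnk1 (1.14, SE 0.27, adjusted p = 0.0481) lost their calls when single animals were left out. At intact endstage, a comparison added after the data were seen, 6 members were higher and 3 lower, 7.38% of members in both directions together. Of all genes, 0.986% were higher and 0.643% lower. Cacna1d led with a log2 fold change of 5.16 (SE 0.49, adjusted p = 0.000176), followed among the higher ones by Kcnh5 (4.45), Kcnf1 (2.69), Kcnk2 (2.59) and Kcnd2 (1.92), and Kcnb2 (-3.42) and Kcnj2 (-2.39) were among the lower ones. With age as a covariate 1 member was called there. All the DKO_EP libraries of this comparison had 14.2% or more of their reads in Lars2, so the DKO_EP genotype and that share cannot be told apart in it.

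Cacna1d was the single member that rose in one genotype and fell in another between 12 weeks and endstage. At 12 weeks, with 4 animals per genotype, DKO averaged 6.94 ± 0.39 (SD), DKO_EE averaged 7.09 ± 0.90 and DKO_EP averaged 7.04 ± 0.44, and the animals of the genotypes overlapped. At intact endstage, DKO averaged 5.71 ± 0.13 over 3 animals, DKO_EE averaged 9.23 ± 0.99 over 8 and DKO_EP averaged 4.07 ± 0.41 over 3. The change was 2.14 in DKO_EE (SE 0.56, adjusted p = 0.00165) and -2.97 in DKO_EP (SE 0.70, adjusted p = 0.000724), and it was not called in DKO. The 3 intact endstage DKO_EP animals, at 4.2, 4.41 and 3.61, were the lowest of all 48. The difference between the changes in DKO_EE and DKO_EP, a test added after the data were seen, was 5.11 (SE 0.89, adjusted p = 0.00382), and Cacna1d was the 1 member called there, beside 0.0238% of all genes higher and 0.0298% lower. It was not called by limma-voom (adjusted p = 0.315), and neither was the fall in DKO_EP (adjusted p = 0.137). The fall in DKO_EP and this difference rest on the 3 animals whose libraries all had 14.2% to 21.6% of their reads in Lars2, so stage in DKO_EP and that share cannot be told apart; with DKO_EE libraries under 10% Lars2 alone, the change of Cacna1d in DKO_EE was 2.37 (adjusted p = 0.00137). Between DKO_EE and DKO the same test called none of the members, beside 0.125% of all genes (19 members with an unadjusted p under 0.05, 0 by limma-voom, smallest adjusted p 0.0681 for Kcnf1). Over the 11 groups the order of the means was castrated DKO_EE (10.45 ± 1.18), TKO with CPI1688 (9.3 ± 0.79), intact endstage DKO_EE, TKO with vehicle (8.82 ± 1.34), the 3 groups of 12 weeks, castrated DKO_EP (6.21 ± 1.34) and castrated DKO (6.21 ± 0.83), intact endstage DKO and intact endstage DKO_EP. Neighbours in this order differed by less than the larger of their SDs except at the step from TKO with vehicle down to the 12-week groups and at the last step.

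The members called between castrated and intact endstage tumours of one genotype depended on the groups in the fit. With only the 2 groups compared in place of all 11, the calls were 1 in DKO, 16 in DKO_EE and 12 in DKO_EP, of which 1, 6 and 0 were among those given here. In DKO 3 were higher and 5 lower in castrated mice, beside 7.01% of all genes higher and 6.93% lower. The higher ones included the modifiers Kcns3 (2.9) and Kcng3 (2.65), and the lower ones Scn1a (-3.16), Kcnn3 (-3.34, SE 0.81, adjusted p = 0.00302), Scn9a (-4.24) and Kcnmb2, with 2 reads against 118, a ratio of 55.2 (counting interval 15 to 462), or 21.2 (5.37 to 183) without the first intact animal. Without the 99-week animal 9 were higher and 3 lower, Kcns3 and Scn9a were among those that lost their calls, and Cacng4 was called (4.19, adjusted p = 3.14e-05). Cacng4, an AMPA receptor and calcium channel regulator, was 6.04, 5.68 and 5.13 in intact DKO and 9.31, 2.36, 10.35 and 9.77 in castrated DKO, the 99-week animal being the low one.

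In DKO_EE 4 members were higher and 3 lower after castration, beside 8.3% of all genes higher and 8.19% lower. Of the 12 intact libraries, 5 had more than 10% of their reads in Lars2, and the castrated ones had at most 0.004%. The part of that share in the result was not tested. Cacng4 was 3.69 to 6.01 with a median of 5.39 in intact and 7.9, 7.78, 8.01, 6.97 and 7.59 in castrated animals (log2 fold change 2.5, SE 0.77, adjusted p = 0.0185). Kcnn3 was 8.16 to 10.82 with a median of 9.2 in intact and 6.93, 5.43, 7.15, 6.55 and 7.64 in castrated animals, lower by a log2 fold change of -2.4 (SE 0.61, adjusted p = 0.00335). Neither gene's ranges overlapped. Kcnk12 (2.26) was also higher and Kcne3 (-1.69) lower, and Kcna1 had 1 read in the castrated group against 181 in the intact one, a ratio of 78.3 (counting interval 13.9 to 3110), or 27.3 (4.71 to 1090) without the fourth intact animal. Kcnq1ot1 (chr7:143203458-143296549, within Kcnq1 on the other strand) was 12.47 to 12.81 in castrated and 11.25 to 12.41 in intact animals, a log2 fold change of 0.78 (SE 0.17, adjusted p = 0.000679). The strand used in counting is not given in the sources used here, so reads of Kcnq1ot1 and of Kcnq1, or of Kcnmb4os2 and its partner, cannot be told apart. In DKO_EP Cacna1d alone was called (2.13, SE 0.67, adjusted p = 0.0301), beside 4.89% of all genes higher and 4.98% lower. It was not called with only the 2 groups compared in the fit (adjusted p = 0.08) or by limma-voom (adjusted p = 0.608), and the intact DKO_EP libraries are those high in Lars2.

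In castrated TKO tumours with vehicle against castrated DKO tumours 3 members were higher and none lower, beside 0.304% of all genes higher and 0.262% lower. Scn1a was 2.95, 5.8, 9.24 and 5.42 in TKO, above all DKO animals (log2 fold change 4.71, SE 0.93, adjusted p = 0.00712). Cacna1d was 7.59, 8.23, 10.7 and 8.77 in TKO, also above all DKO animals (2.61, SE 0.64, adjusted p = 0.0459), and the third was Cacng7, an AMPA receptor regulator (3.63, SE 0.84, adjusted p = 0.0287). Limma-voom called 0 of the members here. Without the first TKO vehicle animal Kcnj3 (5.05, adjusted p = 0.00799) and Cacna2d3 (3.87, adjusted p = 0.0467) were called as well, and without the 99-week DKO animal Kcnj4 was called (-3.76). The TKO animals were 15 to 19 weeks old and the DKO animals 39 to 99 weeks, so genotype and age cannot be told apart. CPI1688 against vehicle gave no called member, beside 0% of all genes, with 9 members at an unadjusted p under 0.05, 0 by limma-voom and a smallest adjusted p of 1. Over all the comparisons 92 members were called at least once and 30 never.

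Partner genes that are not members were counted from a list of 85 genes (channel anchors, calmodulins, ion pumps, exchangers, TRP, chloride and other channels), of which 81 were in the table. From 12 weeks to intact endstage 23 were higher and 21 lower in DKO, 20 and 14 in DKO_EE, and 23 and 19 in DKO_EP, with medians of -0.26, -0.04 and -0.15. The sodium leak channel Nalcn rose by 3.77, 2.9 and 4.41 in DKO, DKO_EE and DKO_EP, and the sodium-calcium exchanger Slc8a1 by 3.03, 1.95 and 3.02. Dpp10, an auxiliary subunit of Kv4 channels, was 2.81, 2.78, 3.24 and 0.0 in 12-week DKO animals and 11.54, 10.41 and 8.81 at endstage, a log2 fold change of 8.04 (SE 1.54, adjusted p = 9.44e-05). In DKO_EE its endstage animals lay at 0.0 to 7.57 with a median of 1.44, all below the DKO animals, and the log2 fold change against DKO was -7.92 (SE 1.28, adjusted p = 0.00832). In castrated tumours Dpp10 was 11.08, 1.25, 10.65 and 11.32 in DKO and 0.0, 1.59, 2.05, 3.24 and 1.92 in DKO_EE (-6.82, SE 1.63, adjusted p = 0.0244), and only the 99-week DKO animal lay among the DKO_EE values. The calcium pump Atp2a3 was higher in DKO_EE than in DKO by 3.42 (adjusted p = 0.0247) in intact and 5.08 (adjusted p = 0.0113) in castrated tumours. In the intact comparison 4 of the 81 were higher and 2 lower, and in the castrated one 5 and 3.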

How the data were processed

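Bulk RNA of mouse prostate tumour tissue was measured in 54 libraries. The deposited table holds, per the authors, log2 values (log2 of a normalized count plus 1) of 16772 genes; FastQC, STAR, RSEM, limma, DESeq2 and the builds GRCm38 and mm10 are named in the submitters' processing notes, without versions or roles. The table has 56 columns, and 2 that matched no sample were not used. Whole reads were recovered for 100% of the values within 0.05 of a read, and a library held 3687048 to 9741808 reads, so genes with few reads carry counting error. Libraries of one animal were averaged on the log2 scale (6 animals with 2 libraries), giving 48 animals in 11 groups by genotype, treatment and age. The 2 libraries of such an animal carry different piece codes and are not repeats of the same piece. The intact endstage DKO libraries were PT, DP and AP-DP, those of DKO_EE included PT, AP, DP and LP, and none of DKO_EP was PT. Piece and genotype are therefore not separated in the intact endstage comparisons.

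Groups were compared with limma 3.58.1 in R 4.3.3 (lmFit, contrasts.fit, eBayes with trend) on the deposited log2 values, with Benjamini-Hochberg adjustment over all genes with any spread and a threshold of 0.05. Genotypes were compared within a setting, and other contrasts in one fit of 11 groups; the fits were tested on simulated data. The p-values measure the spread between these animals. Where a group held 3 or fewer reads, the ratio of reads per normalized total is given with a 95% exact binomial (Clopper-Pearson) interval, or, at 0 reads, against a floor of 3 reads over the group; both cover counting error only. The members, classes, partner and marker lists were chosen with earlier results of these data known. Genes named are a fixed set of members, up to 8 called members per direction and comparison, the 5 highest per kilobase in each group, and up to 4 called partner or marker genes per comparison; Nalcn, Slc8a1, Atp2a3 and Dpp10 are also given in comparisons where this rule did not name them, and Kcnq3, Kcnj4, Kcna4, Kcnh3 and a few others after their values were seen. Positions and lengths come from GENCODE M21 (16750 symbols and all 122 members matched), promoters from RefSeq GRCm38.p6. Alternatives changed the offset (8), the low-value filter (lowest 25% left out), the groups in the fit, the libraries used, age as a covariate and single animals; limma-voom used the recovered reads. DKO_EE against DKO_EP at intact endstage, both differences of progression, libraries under 10% Lars2 and 12-week animals under 1% Ttn were added after the data were seen. Python 3.11.15, numpy 2.4.6, pandas 2.3.3 and matplotlib 3.10.9 were used. A few genes are counted in the totals but not reported here by name or in the figures. The SKO model was not analysed here.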

Additional observations from a re-analysis of the deposited data

Results flagged for a closer look

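Within groups of 4 to 10 animals, a value is given here where the gap between one animal and the next was large for the range of its group (Dixon's test). In all, 438 gene and group sets were looked at, and chance flags about 1 in 20 of sets without tied values. Where all other animals were at 0.0, any value above 0 is flagged whatever its size, so that rate does not hold there. Kcnmb2 at 1.04 in 12-week DKO was such a value and came from 1 read. Values are log2 of a normalized count plus 1.

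The castrated DKO group held 16 of these values, 15 of them in the animal of 99 weeks. That animal was far below the other 3 in Cacna1a (5.25, others 10.56 to 11.48), Cacna1b (1.25, others 9.44 to 9.76), Cacna1c (6.85, others 9.95 to 10.27), Cacng4 (2.36), Kcnb2 (2.98), Kcnc1 (3.41), Kcnh2 (4.34), Kcnh6 (3.21), Kcnf1 (1.25), Kcnmb4 (0.0), Scn3a (3.88, others 10.48 to 11.02), Scn8a (6.76) and Scn3b (2.98). It was above them in Kcne3 (7.44, others 3.62 to 4.19) and in Cacna1s (1.91, others at 0.0). The remaining value was Kcnip1 at 1.28 in the animal of 84 weeks, the others being at 0.0.

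In the TKO vehicle group the first animal was low in Cacna1b (4.8, others 9.09 to 9.84), Kcnb2 (6.42), Kcnh2 (5.55) and Scn3a (6.23, others 11.13 to 12.03) and high in Cacna1g (8.77, others 5.13 to 5.54), and the second was high in Cacna1s (6.06, others at 0.0). With CPI1688 the third animal was high in Cacna1h (9.83, others 7.06 to 7.25) and low in Kcnmb2 (4.06), and the fourth was low in Kcnh2 (7.53, others 9.72 to 9.83), Kcnq1 (6.8) and Kcnmb4 (3.99) and high in Cacna1s (2.58, others at 0.0). The neuroendocrine sum was 1130 in the first vehicle animal and 6990 in the fourth CPI1688 animal, the lowest of their groups; its part in these values was not tested.

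At 12 weeks the DKO values were Kcnip1 at 0.0 and Scn3b at 4.46 in the fourth animal, Kcnmb2 at 1.04, Kcnmb4 at 2.06 and Kcnj6 at 1.64 in the third, each with the others at 0.0, and Kcnn4 at 8.74 in the first. In DKO_EE they were Cacna1s at 0.0 in the second animal, Cacng1 at 1.89 in the third and Kcnn4 at 9.0 in the first, and in DKO_EP Kcna3 at 5.51 in the third. Among intact endstage DKO_EE animals the third was high in Kcnmb4 (5.6) and Kcnn3 (10.82, others 8.16 to 9.39). In castrated DKO_EP tumours these were Cacna2d1 (12.97) in the third animal, Kcnd3 (0.0) in the fifth, and Kcns3 (1.1) and Scn9a (8.79) in the fourth. In castrated DKO_EE tumours the fourth animal was low in Kcnmb1 (1.14) and Scn9a (6.22, others 9.58 to 10.72).

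The change of Cacna1d from 12 weeks to intact endstage differed between DKO_EE and DKO_EP by 5.11 (SE 0.89, limma adjusted p = 0.00382), by a test of the difference itself that was added after the data were seen. Limma-voom did not call it (adjusted p = 0.315), and all intact endstage DKO_EP libraries had 14.2% to 21.6% of their reads in Lars2.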

How the results depend on the processing

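Of 184 calls of named members, 98 held under every alternative run, 125 without each animal in turn and 107 in the other settings; 1 reversed, Cacna1s from 12 weeks to endstage in DKO_EP, at 0.04 with 12-week animals under 1% Ttn. The cause of the changes below was not tested. With the other choice of groups in the fit, members called were 1 (DKO_EE against DKO at 12 weeks), 4 (intact endstage), 2 (DKO_EP against DKO, castrated), 1, 16 and 12 (castrated against intact DKO, DKO_EE and DKO_EP), 0 (TKO against DKO), 4 (DKO_EE against DKO_EP, intact), and 4 and 2 (progression in DKO_EE against DKO and DKO_EP). With offset 8 they were 1 (DKO_EP against DKO, castrated), 0 (castrated against intact DKO_EP) and 1 (progression in DKO_EE against DKO). With limma-voom they were 3 (DKO_EE against DKO_EP, castrated), 5 (castrated against intact DKO), 0 (TKO against DKO) and 0 (progression in DKO_EE against DKO_EP). Age as a covariate gave 4 and 6 for DKO_EE against DKO, intact and castrated, and 1 for DKO_EE against DKO_EP, intact. The first library of each animal gave 5 and 4 for the intact comparisons with DKO and DKO_EP, and libraries under 10% Lars2 gave 5 for that with DKO. Leaving out 1 animal gave 4 to 14 (DKO_EE against DKO, intact), 9 to 22 (castrated; 9 without DKO animal 1, 21 without animal 2, 22 without animal 3), 0 to 1 (DKO_EP against DKO, castrated), 3 to 5 and 1 to 12 (DKO_EE against DKO_EP, castrated and intact), 2 to 12, 5 to 9 and 0 to 1 (castrated against intact DKO, DKO_EE and DKO_EP), 0 to 5 (TKO against DKO), and 0 to 2 and 1 to 1 (progression in DKO_EE against DKO and DKO_EP). The calls from 12 weeks to endstage were 50 to 56 in DKO, 57 to 66 in DKO_EE and 53 to 63 in DKO_EP with 1 animal left out, and 43, 53 and 45 without the lowest 25% of genes, where fewer members are tested. Depth limits members with few reads, since 15.12% of the members' values were at 0 against 8.92% over all genes. No paired analysis was possible because the labels give animal identifiers and no replicate numbers shared between groups.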
